A study of Mus musculus with 384 samples.

Results

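The comparison concerns the dentate gyrus and the CA3 field of the mouse hippocampus, as 88 of the 380 targeted RNA libraries with values. The dentate-like side held 48 samples labelled dDG or vDG (dorsal or ventral dentate gyrus) whose Anxa2 level was under 1000 normalized reads. The CA3-like side held 40 samples labelled dCA3 or vCA3 whose Ociad2 level was over 1200. The dentate-like samples were 24 dDG and 24 vDG from 30 mice, and the CA3-like samples were 24 dCA3 and 16 vCA3 from 29 mice. 27 mice gave samples to both sides. All mice were male Balb/c, and tissue was taken as frozen micropunches, so each sample mixes neurons with glia and vessel cells. In such bulk tissue, fewer cells of a type and less RNA per cell cannot be told apart. The labels name 4 groups of 8 mice, MS naive, MS inject, Co naive and Co inject, and both sides held samples of all 4. The series describes limited nesting or early handling of pups followed by adult social defeat or housing with a female, but nothing pairs those treatments with the label names. The labels give an age of postnatal day 9, whereas the series text places the collection of brains in adulthood.

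The hippocampus passes information in series, from the entorhinal cortex to granule cells of the dentate gyrus, along their mossy fibres to CA3 pyramidal cells, and on to CA1. Granule cells are small, densely packed and produced throughout life, while CA3 pyramidal cells are large and joined to each other by recurrent synapses. Hippocampal neurons carry the glucocorticoid receptor, encoded by Nr3c1, and the mineralocorticoid receptor, through which adrenal steroids act on transcription. The panel measured here was built around genes whose response to the glucocorticoid receptor varies with genetic variants associated with depression or schizophrenia.

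The members were chosen by measured values because the samples under each of these labels fell into separate ranges. Of 63 DG-labelled samples, 15 were left out with Anxa2 between 2006 and 21258 normalized reads, while the 48 kept lay between 87.9 and 270.3. Of 64 CA3-labelled samples, 24 were left out with Ociad2 between 392 and 843, while the 40 kept lay between 1876 and 3256. No sample lay near either limit. The samples labelled Pit were divided by Anxa2 in the same way, and those labelled CER by Ociad2. Over the labels Pit, dDG and vDG together, 64 of 95 samples were low in Anxa2. Over CER, dCA3 and vCA3, 64 of 96 were high in Ociad2. Anxa2 encodes a calcium-dependent membrane-binding protein and Ociad2 a mitochondrial and endosomal protein. Both genes were kept out of every test.

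**Figure D1:**
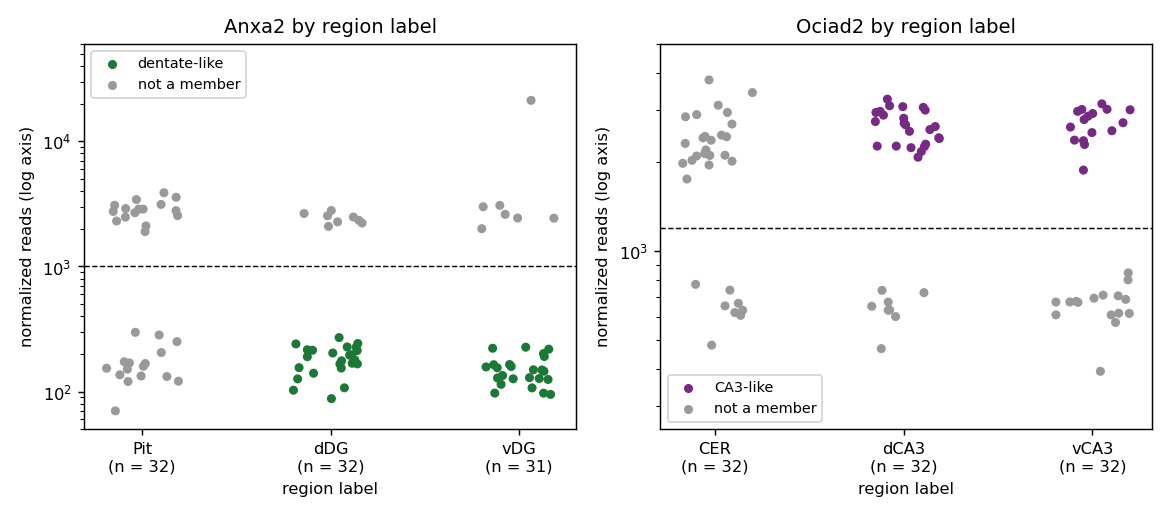
Normalized reads (log axis) of Anxa2 in the samples labelled Pit, dDG and vDG, and of Ociad2 in those labelled CER, dCA3 and vCA3, 1 point per sample, with dashed lines at the limits of 1000 and 1200. Coloured points are the 48 dentate-like and 40 CA3-like samples, and the gap on either side of each line holds no sample.

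The names of the sides rest on the labels and on these ranges alone. None of the 29 markers listed for granule cells, CA3 or CA1 pyramidal cells, pituitary, cerebellum, glia or vessels was among the 69 genes in the table. Pitpnm2 was named because earlier results of these data showed it to move with Anxa2, so its values are no separate check of the names. The samples labelled Pit and low in Anxa2 had a median of 1739 normalized reads for Pitpnm2, and the dDG samples kept had 1765. In the left-out DG-labelled samples the Pitpnm2 median was 247.6, with a highest value of 394. Within the members, 85 of 88 samples correlated more closely over the 67 tested genes with the mean of their own side than with that of the other, their own values left out, and the remaining 3 were 1 dentate-like and 2 CA3-like samples. The sides were set apart by label and value beforehand, so this match does not check their names. The labels give no library plate. The study's methods place whole regions on a plate, so the sides may lie on different plates, and side and plate cannot be told apart. Since samples under one region label fell into separate ranges, the mouse number and the dorsal or ventral part of the same labels may also be in error, which was not tested. Every count of mice and every dorsal against ventral value takes these labels as given.

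One dentate-like library stood apart, the vDG sample of mouse 259 (Co naive). Its Ociad2 level was 2107, against 645 to 1487 in the other 47 dentate-like samples, and its Pitpnm2 level was 364, against 1084 to 2496. Its Anxa2 level of 107 lay among theirs. It met the rule and was kept, and values without it are given where a call changes. Library depth ranged from 90772 to 261007 reads on the dentate-like side (median 142174) and from 114071 to 238876 on the CA3-like side (median 183554).

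Over the 67 tested genes, 45 differed between the sides (67.2%), in limma on log2(value + 1) with the mouse as a block and an adjusted p under 0.1. 29 genes were higher in dentate-like samples (43.3%) and 16 were lower (23.9%). The median log2 difference over all tested genes was 0.23. Without the vDG library of mouse 259, 43 genes were called, 28 higher and 15 lower, with a median of 0.20. Any single gene or group is to be read against that share. Only 4 genes, Pitpnm2, Nedd4l, Fkbp5 and Rfx5, were both called and at least 2-fold apart (5.97%), and all 4 were higher in dentate-like samples. The balance between directions moved with the scaling. When every library was rescaled to the same total, the median difference shifted by 0.11 on the log2 scale, and 36 genes were higher and 10 lower, so that the share of higher genes among those called went from 64.4% to 78.3%. All 29 higher genes and 10 of the 16 lower genes were still called with the same sign. The 6 that were not were Commd1, Cul2, Prmt5, Rps12, Rps25 and St6galnac4.

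**Figure D2:**
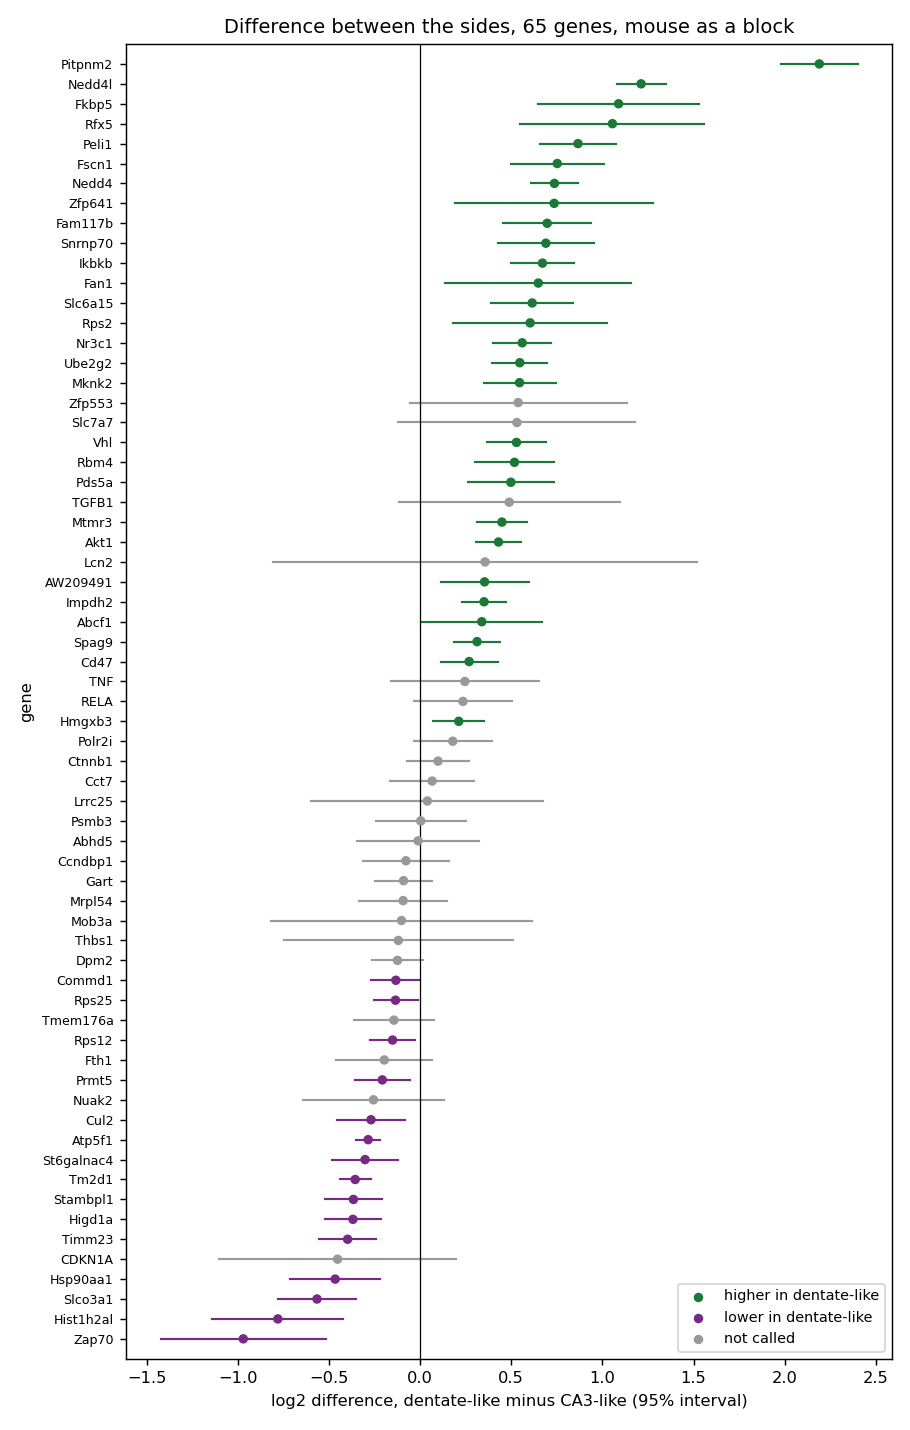
Log2 difference, dentate-like minus CA3-like, for 65 of the genes tested (points) with its 95% interval (lines), from the fit with the mouse as a block. Green marks the 28 genes drawn that were called higher, purple the 15 called lower and grey the genes not called, with Pitpnm2 at 2.19 and Zap70 at -0.97 at the ends.

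The widest difference was that of Pitpnm2, a membrane-associated phosphatidylinositol transfer protein on chromosome 5 (124118690 to 124249760, minus strand, mm10). Its level ran from 364 to 2496 normalized reads in dentate-like samples, with a median of 1714. In CA3-like samples it ran from 146 to 690.5, with a median of 373.5. Every dentate-like sample but that of mouse 259 lay above the highest CA3-like sample. The log2 difference was 2.19 ± 0.11 (SE), or 4.56-fold, with an adjusted p of 1.36e-26 in limma, and Pitpnm2 was higher on the dentate-like side in 27 of 27 mice. With all libraries, 0 of the 67 genes had ranges that did not overlap. Without the vDG library of mouse 259 this held for Pitpnm2 alone, 1 gene (1.49%), and its difference was 2.24. That library was set apart partly by its Pitpnm2 level, so leaving it out gives no separate support for this gap. Of the other lipid and glycosylation genes on the list of 6, Mtmr3, a phosphoinositide phosphatase, was higher by 0.45. St6galnac4, a sialyltransferase, was lower by 0.30 on the log2 scale. The St6galnac4 difference was -1.01 in all samples with these labels and -0.70 in ventral labels alone, both called, but -0.17 after rescaling and -0.06 in dorsal labels alone, neither called. It was called in Co naive mice alone but in none of the other 3 label groups alone. Abhd5, a cofactor of triglyceride lipase, and Dpm2, a subunit of dolichol-phosphate-mannose synthase, had log2 differences of -0.01 and -0.12 and were not called.

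Nedd4l and Nedd4 encode HECT-type ubiquitin ligases that mark membrane channels and receptors for removal from the cell surface. Nedd4l ran from 1067 to 3328 normalized reads in dentate-like samples (median 2375) and from 675 to 1441 in CA3-like samples (median 982). All but 2 dentate-like samples, 46 of 48, exceeded the highest CA3-like value. The log2 difference was 1.21 ± 0.07 (SE), or 2.32-fold, with a limma adjusted p of 7.33e-24, and the direction held in 27 of 27 mice. Nedd4 ran from 979 to 1798 (median 1264) and from 490 to 1214 (median 753.5). Its difference of 0.74 on the log2 scale (adjusted p = 6.85e-15, limma) also went one way in 27 of 27 mice, although 31 of 48 dentate-like samples, not all, lay above the CA3-like range.

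**Figure D3:**
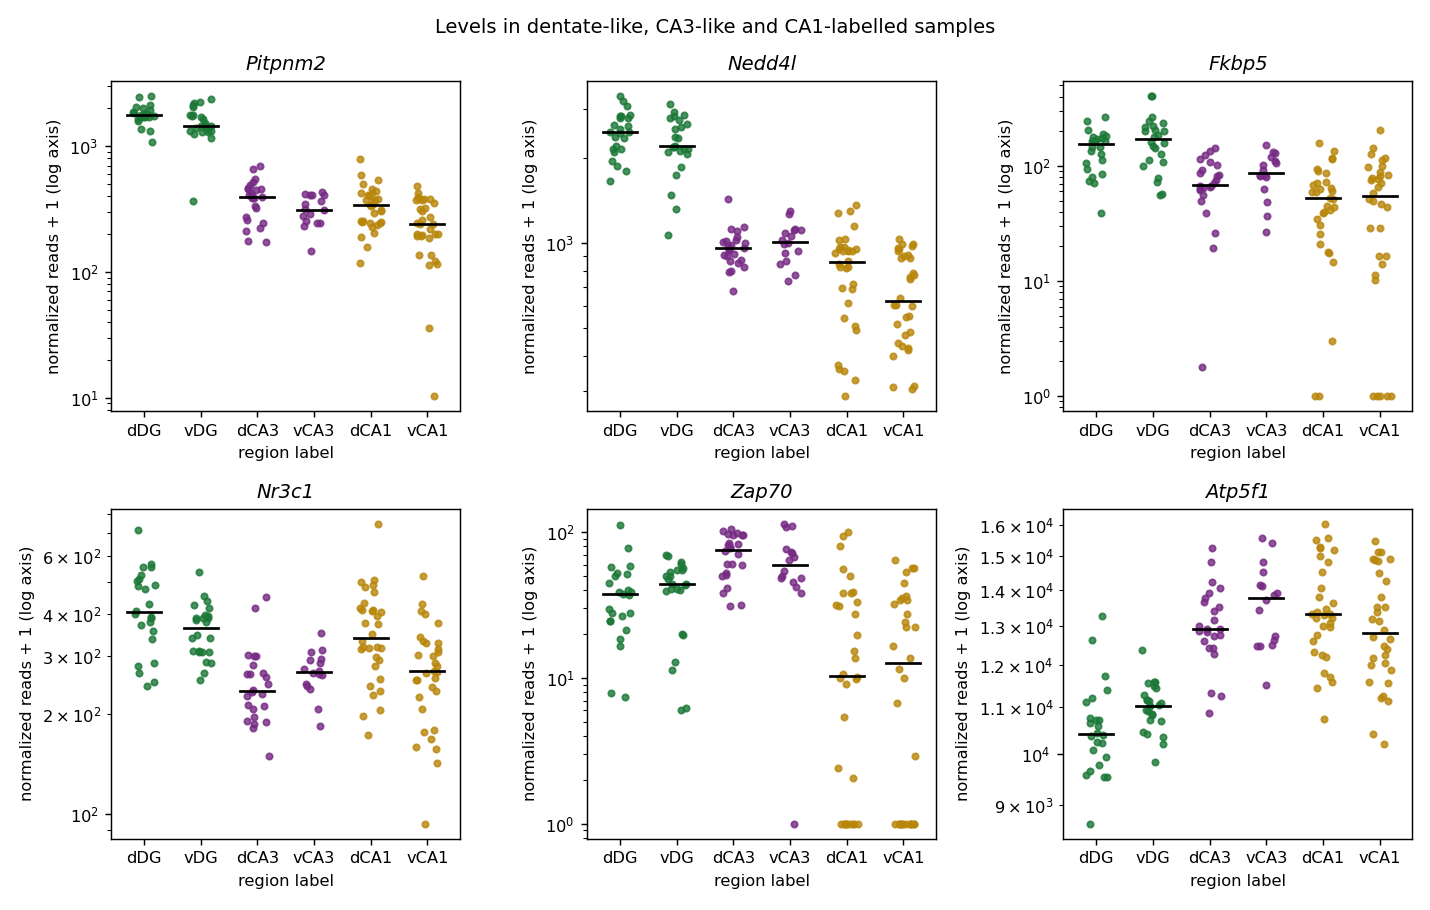
Normalized reads + 1 (log axis) of 6 genes in the dentate-like (dDG, vDG; green), CA3-like (dCA3, vCA3; purple) and CA1-labelled samples (dCA1, vCA1; gold), 1 point per sample, with medians as black bars. Of the 48 dentate-like samples, 47 lie above the highest CA3-like sample for Pitpnm2 and 46 for Nedd4l, whereas Zap70 and Atp5f1 are lower in dentate-like than in CA3-like samples.

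The ubiquitin and proteasome list held 7 panel genes and left out Vhl and the cullin Cul2, given below. Of the 7, 4 were higher in dentate-like samples and 2 were lower, against 43.3% and 23.9% of all tested genes. The median log2 difference was 0.55 for the list and 0.23 over all genes. Besides both ligases, the higher ones were Peli1, a ligase of Toll-like receptor signalling, and Ube2g2, a conjugating enzyme of endoplasmic reticulum-associated degradation. Peli1 had a median of 616 normalized reads on the dentate-like side and 368 on the CA3-like side, a log2 difference of 0.87 ± 0.10 (SE) with 26 of 27 mice in that direction. Ube2g2 differed by 0.55. The lower ones were Stambpl1, a deubiquitinase, by 0.37 and Commd1, a regulator of copper handling and NF-kB turnover, by 0.13 on the log2 scale. Commd1 was not called after rescaling to the same total, where its value was 0.003, nor without the library of mouse 259. The proteasome subunit Psmb3 was among the genes nearest to 0.

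The glucocorticoid receptor gene and Fkbp5, a co-chaperone that the receptor induces and that lowers its hormone affinity, were the only 2 of 7 listed receptor and target genes in the panel. Both were higher in dentate-like samples, as were 43.3% of all tested genes. Nr3c1 ran from 242 to 716 normalized reads on the dentate-like side (median 388) and from 149 to 450.3 on the CA3-like side (median 260.2). The ranges overlapped widely, and 12 of 48 dentate-like samples exceeded every CA3-like sample. The log2 difference was 0.56 ± 0.08 (SE), 1.47-fold, with a limma adjusted p of 1.5e-08, and 24 of 27 mice shared the direction. Fkbp5, on chromosome 17 (28399094 to 28517527, minus strand, mm10), ran from 38.2 to 404 (median 162) and from 0.77 to 152 (median 80.6). It differed by 1.09 ± 0.22 (SE), 2.13-fold (adjusted p = 1.95e-05, limma), in 24 of 27 mice. In all samples with these labels it was 2.34. The second chaperone gene called was Hsp90aa1, encoding the cytosolic chaperone that holds the receptor ready for hormone, and it went the other way. It was lower by 0.47 on the log2 scale, with medians of 12356 and 13766 normalized reads, in 21 of 27 mice. These medians lay closer together than the fitted difference. Over 19 alternative settings the Hsp90aa1 difference ran from -0.60 to -0.30 and was not called in 3. The third of the 3 chaperones in the panel, the chaperonin subunit Cct7, had a difference of 0.07 and was not called. After rescaling it was 0.20 and called.

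Fitted within each label group, the Pitpnm2 difference ranged from 2.07 to 2.31 and that of Nedd4l from 1.03 to 1.46 on the log2 scale, all called. Fkbp5 was less even. Its log2 difference was 1.91 in Co inject mice and 1.30 in MS inject mice, both called, and 0.75 in Co naive (adjusted p = 0.344, limma) and 0.55 in MS naive mice (adjusted p = 0.136, limma), neither called. The dentate-like medians behind these values were 186 normalized reads in Co inject, 192 in MS inject, 123 in Co naive and 89.3 in MS naive samples, while the CA3-like medians lay between 67.8 and 103.4. Nr3c1 differed by 0.69 in Co inject, 0.78 in Co naive, 0.36 in MS naive and 0.40 in MS inject mice, the last not called.

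**Figure D4:**
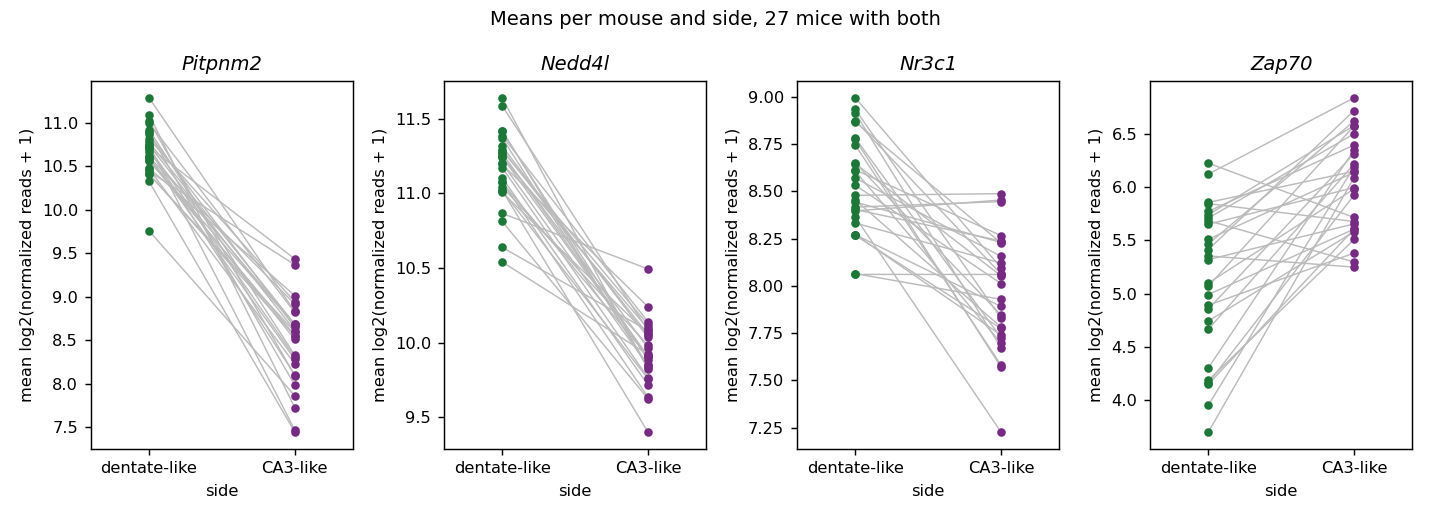
Mean log2(normalized reads + 1) of Pitpnm2, Nedd4l, Nr3c1 and Zap70 on each side in the 27 mice with samples on both sides, a grey line joining the means of a mouse. All lines fall for Pitpnm2 and Nedd4l, 24 of 27 fall for Nr3c1, and 23 of 27 rise for Zap70.

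Of 7 immune and secreted genes, 2 were higher and 1 was lower, against 43.3% higher and 23.9% lower over all tested genes. Zap70, the kinase that relays T-cell receptor signals, lies on chromosome 1 (36761798 to 36782818, plus strand, mm10). It ran from 5.05 to 110.4 normalized reads in dentate-like samples (median 39.5) and from 0 to 113 in CA3-like samples (median 67.8), where 1 library was at 0. Its log2 difference of -0.97 ± 0.23 (SE) had a limma adjusted p of 0.000153, and 23 of 27 mice were lower on the dentate-like side. This call depended on the selection of samples. In every sample with these labels the difference was -0.01 and not called. Both left-out sets were near 0, with medians of 1.0 normalized read in the DG-labelled and 1.6 in the CA3-labelled samples. Rfx5, a regulator of major histocompatibility class II genes, was higher by 1.06 ± 0.25 (SE), with medians of 56.9 and 24.9. Cd47, the surface signal that restrains phagocytes, was higher by 0.27, with medians of 7230 and 5655, but in all samples with these labels its difference was 0.01 and not called. Thbs1, Lcn2, TNF and Lrrc25 were not called. They were low or often at 0, and 16 of 48 dentate-like and 16 of 40 CA3-like samples listed Lcn2 at 0.

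Of the 4 mitochondrial genes, 3 were lower in dentate-like samples and 0 were higher, with a median log2 difference of -0.33. Over all tested genes 23.9% were lower and 43.3% higher, with a median of 0.23. Atp5f1, a subunit of the ATP synthase stalk, ran from 8660 to 13259 normalized reads on the dentate-like side (median 10733) and from 10878 to 15562 on the CA3-like side (median 13078). 27 of 48 dentate-like samples lay under the lowest CA3-like sample. The difference was small and steady, -0.29 ± 0.03 (SE) on the log2 scale (adjusted p = 6.92e-11, limma), and 26 of 27 mice were lower on the dentate-like side. After rescaling to the same total it was -0.15, still called. Timm23, the pore of the inner-membrane import machinery, was lower by 0.40 and Higd1a, a hypoxia-induced factor of the respiratory chain, by 0.37 on the log2 scale, and both stayed called after rescaling. The mitochondrial ribosomal gene Mrpl54 had a difference of -0.09 and was not called.

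All 5 cytosolic translation genes were called, in both directions, where 67.2% of all tested genes were called. Rps2, a protein of the small ribosomal subunit, was higher by 0.60, Mknk2, a kinase of the cap-binding factor eIF4E, by 0.55 and Abcf1, an initiation factor, by 0.34. The abundant small-subunit genes Rps12 and Rps25 were lower by 0.15 and 0.14 on the log2 scale. After rescaling to the same total these were -0.01 and 0.002 and no longer called, so the direction of Rps25 turned. In all samples with these labels Rps12 was higher by 0.33, called, and Rps25 had a difference of 0.04 that was not called. Abcf1 was not called without the library of mouse 259, nor in all samples with these labels. Of the nucleotide synthesis genes, Impdh2, an enzyme of guanine nucleotide synthesis, was higher by 0.35, and Gart, an enzyme of purine synthesis, was not called.

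Among 3 membrane transporters, 1 was higher, 1 was lower and 1 was not called, against 43.3% higher and 23.9% lower over all tested genes. Slc6a15, a neuronal carrier of branched-chain amino acids, had medians of 562 normalized reads on the dentate-like and 368 on the CA3-like side and was higher by 0.61 ± 0.11 (SE), in 25 of 27 mice. Slco3a1, an organic anion carrier, had medians of 197 and 271.5 and was lower by 0.57 on the log2 scale, in 25 of 27 mice. The sign of Slc6a15 depended on the selection. In all samples with these labels its difference was -0.31 and not called, and the left-out DG-labelled samples had a median of 50.9. Slc7a7, a cationic amino acid carrier, was not called.

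Of the 5 genes of actin and kinase signalling, 3 were higher and 0 lower, against 43.3% higher and 23.9% lower over all tested genes. Fscn1, which bundles actin in filopodia, was higher by 0.75 ± 0.13 (SE), with medians of 455 and 305. Akt1, a kinase of growth factor signalling, was higher by 0.43 in 27 of 27 mice, and the kinase scaffold Spag9 by 0.31. In all samples with these labels the Spag9 difference was -0.04 and not called. Ctnnb1 and Mob3a were not called. In the RNA list, the spliceosomal Snrnp70 was higher by 0.69 and the splicing factor Rbm4 by 0.52, while Prmt5, an arginine methyltransferase of splicing proteins, was lower by 0.21 on the log2 scale and was not called after rescaling. Among 3 chromatin genes, the cohesin regulator Pds5a was higher by 0.50 and Hmgxb3, an HMG-box protein, by 0.21. Hist1h2al, listed in the table with a human transcript and annotated in GENCODE M21 as a processed pseudogene of a histone gene, was lower by 0.78 on the log2 scale, with medians of 49.3 and 95.4 normalized reads. Histone genes have near-identical copies, so reads of Hist1h2al are uncertain. Of 3 cell cycle and repair genes, the nuclease Fan1 was higher by 0.65 at a mean of only 4.96 normalized reads.

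Of the 12 tested genes outside the lists, 5 were called higher and 2 lower, against 43.3% and 23.9% of all tested genes. Among the higher ones were Zfp641, a zinc finger protein, by 0.74, and Fam117b by 0.70. In ventral labels alone the Zfp641 difference was 0.05 and not called, nor was it called in MS inject, MS naive or Co inject mice alone. Vhl, the substrate receptor that marks hypoxia-inducible factor for degradation, was higher by 0.53 and Ikbkb, a kinase of NF-kB activation, by 0.67. The uncharacterized AW209491 was higher by 0.35 and Cul2, the cullin that Vhl assembles with, was lower by 0.27 on the log2 scale, a difference that was not called after rescaling. Tm2d1, a transmembrane protein, was lower by 0.36 ± 0.04 (SE) on the log2 scale in 27 of 27 mice, with 24 of 48 dentate-like samples under the CA3-like range. The genes nearest to 0 were Psmb3 at 0.003 (95% interval -0.24 to 0.25), Abhd5 at -0.01 (-0.35 to 0.32) and Cct7 at 0.07 (-0.16 to 0.29). Tmem176a, a membrane protein that was high in the left-out DG-labelled samples (median 4291 normalized reads), had medians of 216 and 236 on the retained sides and a log2 difference of -0.14 that was not called. It was -0.54 in dorsal labels alone and -0.19 with 1 mean per mouse and side, both called, 0.30 in ventral labels alone, not called, and 1.57 in all samples with these labels, called.

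Dorsal and ventral labels were then compared within each side. In dentate-like samples, where 18 mice had both labels, 1 of 67 genes was called (1.49%). That gene was Abcf1, with medians of 107 normalized reads in dDG and 153 in vDG and a dorsal minus ventral log2 difference of -0.76 ± 0.18 (SE, adjusted p = 0.0256, limma). 15 genes passed an unadjusted p of 0.05. In CA3-like samples, where 11 mice had both, 8 genes were called (11.9%). In dCA3, 3 were higher (4.48%), namely Peli1 by 0.73, Tmem176a by 0.70 and Ctnnb1, the adhesion and Wnt signalling protein beta-catenin, by 0.47 on the log2 scale. Abhd5, Fth1 (the iron-storing ferritin heavy chain), Hsp90aa1, Pds5a and Slco3a1 were the 5 lower ones (7.46%), with dorsal minus ventral log2 differences of -1.04, -0.99, -0.75, -0.64 and -0.60 in that order.

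Fth1 ran from 16074 to 95114 normalized reads in dCA3 (median 30245) and from 26306 to 99820 in vCA3 (median 57188), and the labels overlapped. The most abundant gene took a median of 26.2% of a library's reads in dCA3 and 39.8% in vCA3. The CA3-like result turned with the scaling. After rescaling to the same total, 15 genes were higher in dCA3 and 2 were lower, so that higher genes made up 88.2% of those called instead of 37.5%. Peli1, Tmem176a and Ctnnb1 stayed higher and Abhd5 and Fth1 stayed lower, while Hsp90aa1, Pds5a and Slco3a1 were not called. Without the mouse as a block 14 genes were called, and Ctnnb1 and Pds5a were not among them. No marker in the panel checks a dorsal or ventral label, and these labels may be in error as the region labels may be.

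**Figure D5:**
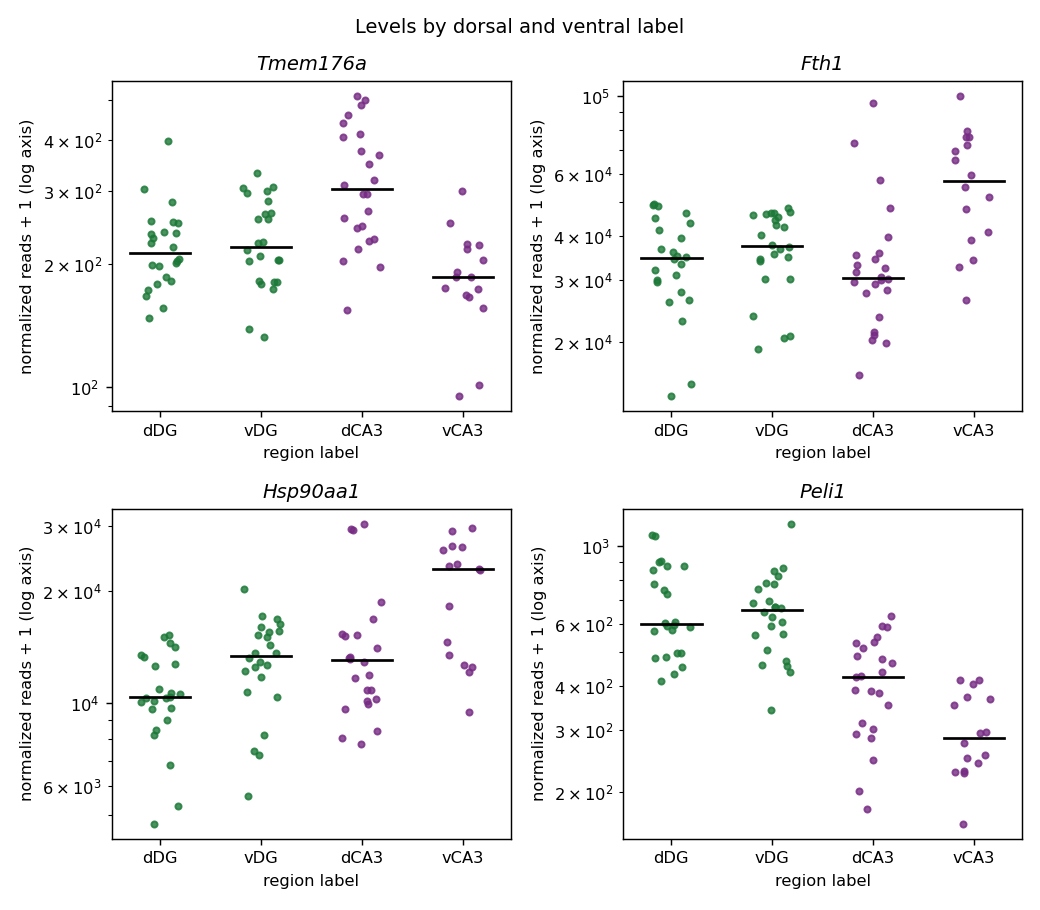
Normalized reads + 1 (log axis) of Tmem176a, Fth1, Hsp90aa1 and Peli1 in dDG and vDG (green) and dCA3 and vCA3 (purple) members, 1 point per sample, with medians as black bars. Tmem176a and Peli1 are higher in dCA3 than in vCA3 and Fth1 is lower there, with overlapping ranges, while medians of dDG and vDG lie close together for Tmem176a, at 211 and 219 normalized reads.

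The dorsal minus ventral difference was itself compared between the sides in 1 fit, which called 3 of 67 genes (4.48%), 1 with a positive value (1.49%) and 2 with a negative one (2.99%). For Tmem176a the dentate-like minus CA3-like value was -0.83 ± 0.19 (SE) on the log2 scale, with an adjusted p of 0.00371 in limma. Within the sides its dorsal minus ventral difference was -0.06 and 0.70. St6galnac4 had a difference between the sides of 0.53 and Tm2d1 one of -0.25, each with an adjusted p of 0.0823 in limma. After rescaling to the same total, 7 genes were called, 0 with a positive and 7 with a negative value, and the median over all genes went from 0.06 to -0.20. Tmem176a and Tm2d1 were among them and St6galnac4 was not. Without the vDG library of mouse 259, Tmem176a alone was called, at -0.88, and St6galnac4 and Tm2d1 had an adjusted p of 0.106 in limma.

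Whether the difference between the sides moved with the mouse labels was tested in the same way. No gene was called for MS against Co (0 of 67, 0%) in limma. At an unadjusted p under 0.05 there were 5, namely Snrnp70, TGFB1, Nr3c1, Higd1a and Ccndbp1, named after their values were seen. For Nr3c1 the gap between the sides was -0.36 ± 0.15 (SE) in MS relative to Co on the log2 scale, with an unadjusted p of 0.0228 and an adjusted p of 0.493 in limma. No gene was called for inject against naive (0 of 67, 0%) either. At an unadjusted p under 0.05 there were 3, Ube2g2, Fkbp5 and Nedd4l. The gap of Fkbp5 was wider by 0.96 ± 0.43 (SE) with the inject label (unadjusted p = 0.0286, adjusted p = 0.602, limma). The change of Fkbp5 between label groups described above was therefore not called as a difference.

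Both sides were finally set beside the 64 samples labelled dCA1 or vCA1, called CA1 here, which were not selected and whose label could not be checked. As whole regions share a plate, these samples may lie on another plate than either side, and region and plate cannot be told apart. Both contrasts share these samples. Against CA1, 58 genes were called for dentate-like samples (86.6%), 40 higher (59.7%) and 18 lower (26.9%). For CA3-like samples 42 were called (62.7%), 28 higher (41.8%) and 14 lower (20.9%). Pitpnm2 had a CA1 median of 282 normalized reads, and its log2 difference from CA1 was 2.65 ± 0.14 (SE) for dentate-like and 0.42 ± 0.14 (SE) for CA3-like samples. Nedd4l had a CA1 median of 779, with differences of 1.74 and 0.51. For these genes the order of the levels was dentate-like, CA3-like and CA1, with CA3-like and CA1 ranges largely shared.

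Nr3c1 in the CA1-labelled samples lay between the sides, with a median of 309.7 normalized reads. Its log2 difference from CA1 was 0.34 for dentate-like and -0.24 for CA3-like samples, both called in limma. Atp5f1 in CA3-like samples did not differ detectably from CA1 (0.00 ± 0.03 SE) but was lower by 0.29 in dentate-like samples. Hist1h2al was highest in CA1, with differences of -1.33 for dentate-like and -0.49 for CA3-like samples. Zap70 had a CA1 median of 10.1 and was listed at 0 in 21 of 64 samples. Its differences from CA1 of 2.05 for dentate-like and 2.96 for CA3-like samples were on the log2(value + 1) scale and depend on the pseudocount. Slc6a15 was lower in CA3-like than in CA1-labelled samples by 0.47 on the log2 scale and was not called between dentate-like and CA1-labelled samples (0.15 ± 0.10 SE). CA1 libraries spread widely, from 286 to 1368 normalized reads for Nedd4l, and the part of that spread in these differences was not tested.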

How the data were processed

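RNA from frozen micropunches of 12 brain regions of 32 mice had been amplified with a targeted 50-base panel and sequenced. Per the methods and labels, the authors filtered reads with PRINSEQ lite 0.20.4, aligned them with BWA 0.7.12 to the assay manifest (mm10), removed genes of low coverage and normalized with DESeq2. The deposited values are a normalized signal per gene and sample, reads divided by a size factor, for 69 genes. Dividing each column by its smallest step gave whole reads for 100% of values (within 0.0001 reads), from which depth was taken. Groups and mice came from the sample labels, and 4 of 384 labelled samples had no values here.

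The values were analysed as log2(value + 1) with limma 3.58.1 in R 4.3.3, with 1 term per mouse, two-sided, and Benjamini-Hochberg adjusted over 67 genes, called under 0.1, the study's false discovery rate. The authors' surrogate variables were not used. A log2(value + 1) difference understates the change of low genes. The mouse number of the labels is given as 1 animal, so samples of a mouse were paired, although the data did not show it. Deviations from the group means of the same mouse had a median correlation of -0.08 over 60 pairs (18 over 0.1), against 0.01 over 420 pairs of other mice. Only mice with samples in both sets compared inform a blocked difference. 204 pairs of libraries of the same region and group correlated at 0.88 to 0.99, and none was identical. Whether replicates within a group are separate litters is not given in the sources used here. With 1 term per mouse, p-values measure the spread between samples within mice, and samples of a mouse on 1 side count separately. With 1 mean per mouse and side, all 45 genes called between the sides kept their call and sign.

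Members, gene lists and tests were chosen with earlier results of these data known. Named genes were the 10 most different called genes per direction with a mean of at least 10, called list members, Nr3c1, Tmem176a, Pitpnm2, Slc6a15, the 3 genes nearest to 0, and up to 5 called genes per direction in other comparisons. Some genes that met this rule are not reported here. Fits were tested on simulated data. Alternatives changed the pseudocount, filter, scaling, block, threshold and samples. Gene positions are those of GENCODE M21. Depth of 90772 to 261007 reads per member library makes a count of 3 reads worth 1.42 to 3.77 normalized reads, counting error only.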

Additional observations from a re-analysis of the deposited data

Results flagged for a closer look

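In 80 sets of 4 to 6 libraries (5 measures in each region label and label group of the members), 4 had a sample far from its neighbours, where chance alone gives about 1 in 20. Mouse 91 had a Pitpnm2 level of 2370 normalized reads in MS naive vDG, against 1166 to 1450 in the others. Mouse 79 had an Nr3c1 level of 450.3 in MS inject dCA3, against 181 to 266 in the others. Mouse 81 had 261007 reads in MS inject vDG, against 101579 to 152476. Mouse 239 had 189824 reads in Co naive vCA3, against 144547 to 150535. The dorsal minus ventral difference passed the limma test of a difference between the sides for Tmem176a (-0.83), St6galnac4 (0.53) and Tm2d1 (-0.25). After rescaling to the same total St6galnac4 did not pass, and without the vDG library of mouse 259 neither St6galnac4 nor Tm2d1 did.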

How the results depend on the processing

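The count of genes lower in dentate-like samples fell from 16 to 10 after rescaling every library to the same total, to 10 with voom on whole reads (chosen after seeing the data), and to 10, 8, 6 and 5 in MS naive, Co inject, Co naive and MS inject mice alone, with fewer samples in each. The count of higher genes was 16 in MS inject mice alone instead of 29. Without the mouse as a replicate block 49 genes were called instead of 45, and all 45 were among them with the same sign. For dorsal against ventral labels in dentate-like samples, the count of 1 became 7 with a pseudocount of 10, 2 after rescaling, 5 without the replicate block or with it as a random effect, and 0 with every sample of these labels. In CA3-like samples, the count of 8 became 15 with a pseudocount of 10, 14 with a minimum mean of 10, 17 after rescaling, 14 without the block, 13 with a random block, 2 at an adjusted p of 0.05, and 23 with every sample. The dorsal and ventral difference between the sides went from 3 genes to 7 after rescaling, 5 without the block or with a random one, and 1 at 0.05, without the vDG library of mouse 259 or with every sample of these labels. With every sample of these labels, Tmem176a turned to 1.57, Slc6a15 to -0.31, Abhd5 to 0.34, Spag9 to -0.04, Rps12 to 0.33 and Rps25 to 0.04. Rescaling and voom turned the sign of Rps25 and Commd1, to values within 0.01 of 0. Genes near 0 also changed sign without a call, such as Abhd5 from -0.54 in MS inject to 0.56 in Co naive mice. The cause of these changes was not tested. No member library had under 50000 reads, so leaving out shallower ones changed nothing between the sides. The planned count tests with edgeR and DESeq2 were not run, because the table used here holds normalized values and has too few low ones to check the recovered reads as counts by the rule set for such tests. The depth leaves genes near a few reads, such as Fan1 and Lrrc25, with wide intervals.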
